A study of Rattus norvegicus with 4 samples.

Results

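Liver expression of 10 immediate early and growth arrest genes was examined in male Wistar rat offspring. The genes, Egr1, Fos, Jun, Junb, Btg2, Ier2, Gadd45a, Gadd45g, Atf3 and Dusp1, were found by their gene symbol, and each had 1 row among 21791 rows of an Illumina bead array table, which hold 21597 genes. The rats were 4 months old and belonged to 4 groups with 1 deposited sample each. Control rats and rats undernourished before birth (FR30 in the labels) were each kept on a standard or a high-fat diet. Every sample was total RNA of liver. Neither the make-up of the diets, nor what FR30 stands for, nor whether a sample was 1 rat or a pool is stated in the sources used. With 1 sample per group the variation between animals of a group is not known, so the differences below stand without replicates, tests or p-values.

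Immediate early genes are transcribed within minutes of a stimulus, without new protein synthesis, from promoters read by SRF, CREB and other factors that kinases activate. Their products include transcription factors, such as the AP-1 subunits Jun, Junb and Fos, and brakes on the same signals, such as the phosphatase Dusp1. Growth arrest genes, such as Gadd45a, Gadd45g and Btg2, respond to stress or DNA damage and slow the cell cycle. In liver both kinds respond to feeding and hormones, to partial hepatectomy and to the handling of the tissue.

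The RefSeq promoter table (GRCr8 build, 250 bases before to 50 after each annotated start) held 7 of the 10 genes: Egr1, Junb, Btg2, Ier2, Gadd45a, Gadd45g and Dusp1. The windows of Dusp1, Btg2 and Ier2 are shown because they were the members with the letters TGACGTCA, the cAMP response element bound by CREB. That of Gadd45g is shown because, among the members, it had the largest fold between the control samples. Capitals mark TGACG on either strand, the core of the cAMP response element. TGACGTCA holds this core once on each strand.
Gadd45g (chr17:13530302-13530601, - strand): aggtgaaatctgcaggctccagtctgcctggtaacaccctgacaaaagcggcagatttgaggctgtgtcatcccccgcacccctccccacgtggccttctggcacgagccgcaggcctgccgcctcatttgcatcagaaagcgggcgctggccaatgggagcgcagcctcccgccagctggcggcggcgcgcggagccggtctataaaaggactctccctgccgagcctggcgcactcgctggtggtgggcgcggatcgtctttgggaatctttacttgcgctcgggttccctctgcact
Dusp1 (chr10:17184603-17184902, + strand): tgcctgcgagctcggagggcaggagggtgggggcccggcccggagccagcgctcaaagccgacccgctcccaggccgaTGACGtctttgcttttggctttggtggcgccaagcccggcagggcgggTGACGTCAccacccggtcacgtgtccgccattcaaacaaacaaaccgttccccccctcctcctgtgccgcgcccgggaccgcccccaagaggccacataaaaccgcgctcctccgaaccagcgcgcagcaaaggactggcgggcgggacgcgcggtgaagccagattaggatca
Btg2 (chr13:48087641-48087940, - strand): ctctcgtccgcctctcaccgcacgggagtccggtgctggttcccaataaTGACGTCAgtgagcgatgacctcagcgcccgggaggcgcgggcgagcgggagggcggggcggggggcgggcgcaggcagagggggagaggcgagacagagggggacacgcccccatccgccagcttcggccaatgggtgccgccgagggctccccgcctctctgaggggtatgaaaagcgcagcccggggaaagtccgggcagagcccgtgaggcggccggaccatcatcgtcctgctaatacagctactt
Ier2 (chr19:40399123-40399422, + strand): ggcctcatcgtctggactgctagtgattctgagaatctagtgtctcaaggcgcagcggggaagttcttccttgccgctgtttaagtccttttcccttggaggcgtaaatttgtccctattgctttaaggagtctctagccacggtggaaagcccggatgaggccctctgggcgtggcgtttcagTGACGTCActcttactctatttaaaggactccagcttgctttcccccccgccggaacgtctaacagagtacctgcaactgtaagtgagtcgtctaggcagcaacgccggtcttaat

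TGACGTCA began 124 bases before the start of Dusp1, 201 bases before that of Btg2 and 66 bases before that of Ier2, and 1.83% of 33469 windows held it. The core TGACG was in 6 of the 7 windows, all but that of Gadd45g, and in 21.2% of all windows. The CArG box, the letters bound by SRF, was matched 2 times in the Egr1 window, beginning 105 and 83 bases before the start, in none of the other 6, and in 1.64% of all windows. TATAAA was matched in the windows of Gadd45g and Junb, beginning 48 and 49 bases before the start, and in 14.2% of all windows. GGGCGG, the SP1 box, was matched in Btg2, Gadd45a and Dusp1 and in 33.1% of all windows. GCGNGGGCG, read by EGR proteins, was matched in Btg2 and in 4.98% of all windows. TGANTCA, the AP-1 site, was matched in none of the 7 and in 7.33% of all windows. All motifs were searched on both strands, and a match describes letters only.

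After the authors' normalization the arrays were alike in overall signal, which normalization can bring about by itself. Between 9001 and 9226 genes were detected per sample, at a detection p-value under 0.05, with a median signal from 170.1 to 170.6. The background, the mean signal without target as fitted from the detection p-values, was 153.4 to 154. In the non-normalized signals it was 147.5 to 155.9. Hepatocyte markers (Alb, Ttr, Tf, Ahsg, Fgb and Cps1, the 6 of 7 that were in the table) were detected on every sample, with a summed background-corrected signal between 260400 and 268800. The FR30 standard sample stood apart in its STDEVs, the authors' spread of each signal: 114 detected genes had a STDEV over 20% of the signal there, against at most 1 in any other sample. The STDEVs of the 10 members lay between 0.424% and 9.31% of the signal over all samples. The sources used here do not say how many measurements a STDEV covers.

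Of the 10 members, 9 were detected on all 4 samples, and 7 of these 9 had their highest value in the control standard sample: Jun, Junb, Btg2, Ier2, Gadd45a, Gadd45g and Dusp1. Among all 8460 genes detected on all samples, 23.9% had their highest value there. In 5 members, Jun, Btg2, Gadd45a, Gadd45g and Dusp1, the control standard sample was at least 1.5-fold above each of the other 3 samples, as in 0.449% of all such genes. The members were chosen with earlier results of these data known. Here and below, their contrast with all genes is therefore not independent of that choice. With no background correction Jun and Btg2 were short of 1.5-fold above the FR30 standard sample. Egr1 was highest in the control high-fat sample, as were 25.7% of all such genes, and Atf3 in the FR30 standard sample, as were 26.4%. In bulk RNA fewer cells of a type and less RNA per cell cannot be told apart. The members' signals are given below as deposited, with the STDEV, in array intensity units. Fold and log2 values are on the scale after the background was removed, which widens folds of dim genes. Diet differences are high-fat minus standard, and prenatal differences FR30 minus control.

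**Figure D1:**
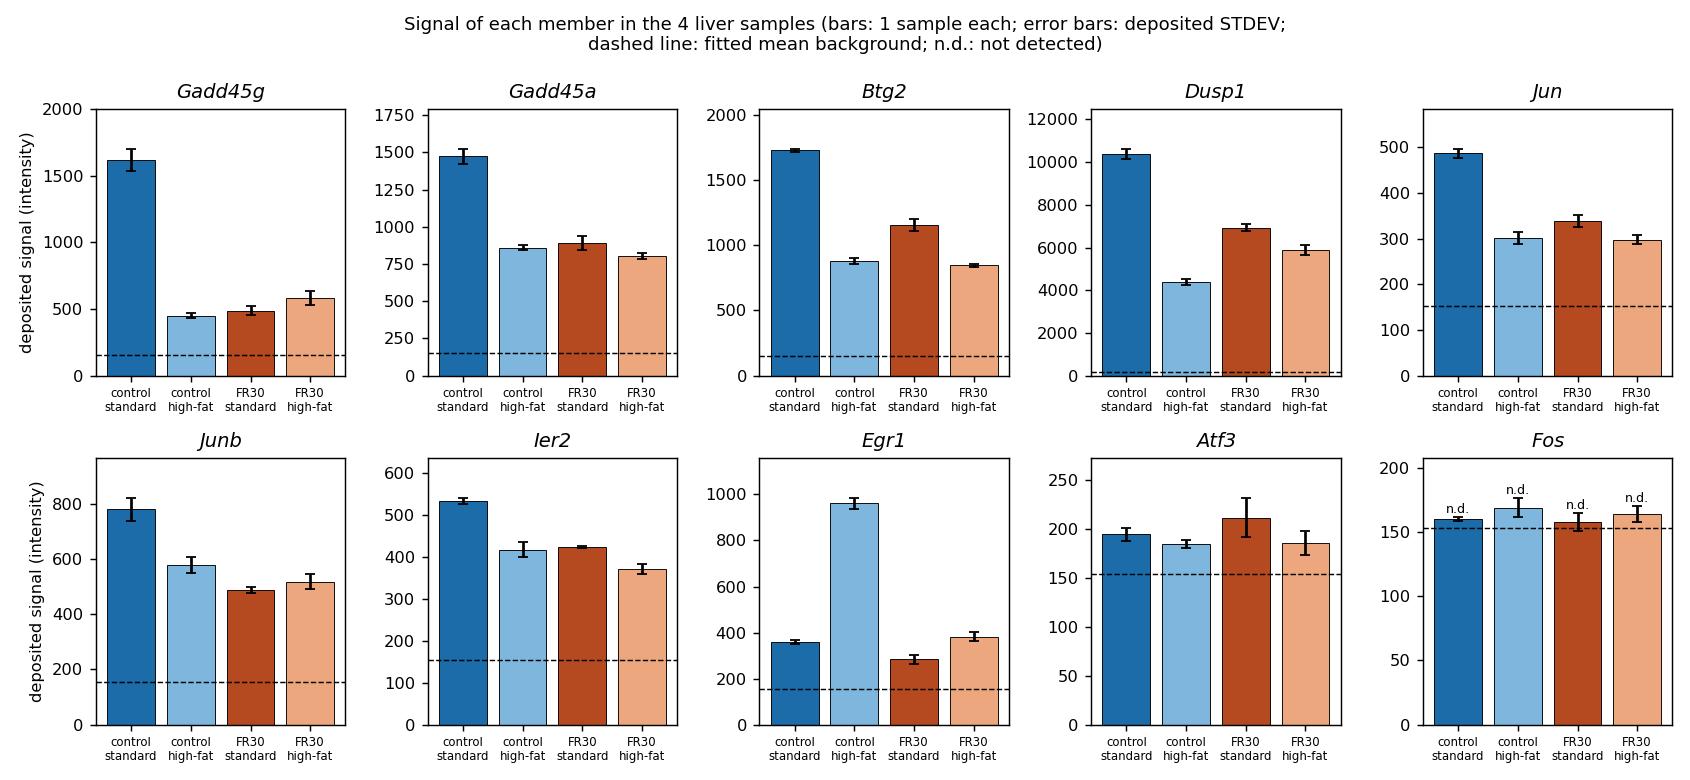
Deposited signal (array intensity) of the 10 genes in the 4 samples, 1 panel per gene with its own linear axis from 0. Bars are single samples, error bars the deposited STDEV, and the dashed line the fitted mean background. The control standard bar is the tallest in 7 panels, Egr1 is tallest in the control high-fat sample, and the bars of Fos, marked n.d., were not detected.

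Gadd45g, a stress sensor that binds stress-activated kinases and cell cycle proteins, differed most among the growth arrest genes. In control rats its signal was 1617 ± 82.9 on the standard and 449.5 ± 18.5 on the high-fat diet. In FR30 rats it was 489 ± 34.6 on the standard and 582 ± 53.1 on the high-fat diet. The control standard sample was high alone, 3.34-fold above the next, and the FR30 standard and control high-fat samples were within 1 STDEV each of one another. Across the 4 samples Gadd45g spanned 4.78-fold, a range at or above that of 99.68% of the genes detected on all samples.

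Gadd45a, its paralog and a target of p53, read 1473 ± 47.9 (standard diet) and 860.4 ± 16.7 (high-fat) in control rats, and 891 ± 46.5 and 806 ± 19.1 in FR30 rats. The control standard sample was again high alone, and the other 3 lay within 1.12-fold of each other. Btg2, an antiproliferative partner of the CCR4-NOT deadenylase, read 1728 ± 8.37 and 878 ± 24.7 in control rats, and 1158 ± 46.1 and 845 ± 8.33 in FR30 rats, the standard diet first. Here the FR30 standard sample stood between, above both high-fat samples by more than the STDEVs, and the high-fat samples did not differ beyond theirs.

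Dusp1, the phosphatase that switches off MAP kinases, read 10381 ± 220.0 and 4382.5 ± 140.1 in control rats on the standard and the high-fat diet, and 6937 ± 165.5 and 5882 ± 231 in FR30 rats on those diets. All 4 samples were apart by more than 1 STDEV each, with the control samples at the extremes. Dusp1 spanned 2.43-fold.

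The AP-1 subunits Jun and Junb were also highest in the control standard sample. Jun read 487 ± 9.04 (standard diet) and 301.5 ± 12.8 (high-fat) in control rats and 339 ± 12.5 and 298 ± 10.3 in FR30 rats, with the high-fat samples alike within their STDEVs. Junb read 779 ± 40.4 and 578 ± 28.3 in control rats and 487 ± 12.4 and 518 ± 26.6 in FR30 rats, the standard diet first, and its FR30 samples were alike within their STDEVs. Ier2, a nuclear protein induced by growth factors, read 533 ± 7.425 and 418 ± 17.3 in control rats and 424 ± 1.80 and 372 ± 11.2 in FR30 rats, in that diet order. Its range was 1.69-fold, the narrowest among the 7 members highest in the control standard sample.

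Egr1, a zinc finger transcription factor, had another order. In control rats its signal was 358 ± 7.66 on the standard and 961 ± 22.3 on the high-fat diet. In FR30 rats it was 284 ± 18.9 and 381.5 ± 19.3. The control high-fat sample was high alone, 3.38-fold above the next, and the FR30 high-fat and control standard samples were within 1 STDEV each. Egr1 spanned 5.63-fold, the widest range among the members.

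Atf3 and Fos were near or at background. Atf3, a stress-induced member of the ATF/CREB family, read 194 ± 6.62 (standard diet) and 184 ± 3.91 (high-fat) in control rats and 211.5 ± 19.7 and 185 ± 12.1 in FR30 rats, with detection p-values between 0.00727 and 0.0449. No neighbouring samples in its order were apart by more than 1 STDEV each. Fos, the AP-1 subunit that pairs with Jun, read 160.2 and 169 in control rats and 158 and 164 in FR30 rats, with detection p-values between 0.141 and 0.384. It was detected on no sample and enters no comparison, so the array says nothing of its level beyond the background.

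The first comparison sets the high-fat against the standard diet in control rats. Of 9 members compared, 5 were at least 1.5-fold lower on the high-fat diet and 1 was higher, where 3.36% of all 9485 genes were lower and 2.57% higher. The median log2 difference of the members was -0.88 and that of all genes 0.01. Gadd45g was 4.78-fold lower, the 4th lowest of all genes compared, and Dusp1 2.43-fold, the 35th lowest. Btg2 was 2.14-fold lower, Jun 2.13-fold and Gadd45a 1.83-fold. Junb and Ier2, with log2 differences of -0.55 and -0.50, were lower by more than their STDEVs but by less than 1.5-fold, and Atf3, at -0.21, was not apart by its STDEVs. Egr1 went the other way, 3.70-fold higher, the 19th highest value.

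**Figure D2:**
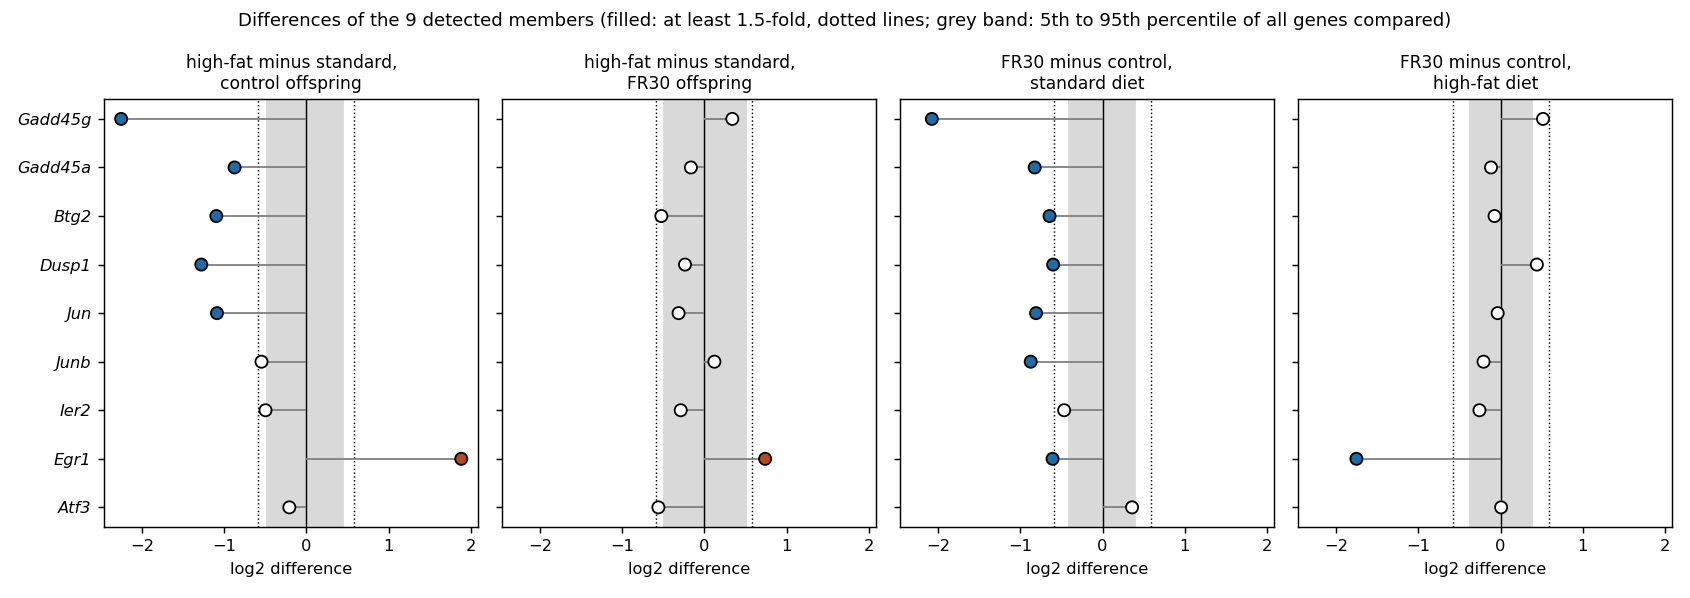
Log2 differences of the 9 detected members in the 4 comparisons, 1 point per gene. Filled points are at least 1.5-fold (dotted lines), blue where lower and orange where higher, and the grey band runs from the 5th to the 95th percentile of all genes compared. The comparisons that use the control standard sample hold 5 and 7 lower members, and Egr1 stands apart at -1.76 between the high-fat samples.

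In FR30 offspring the same diet comparison called 1 member higher, Egr1 by 1.67-fold, and 0 lower. The shares of all 9562 genes called were 3.83% higher and 3.39% lower, and a share of 1 in 9 members rests on a single gene. With no background correction the log2 difference of Egr1 was 0.43 in place of 0.74, short of 1.5-fold. Btg2 read -0.53, Atf3 -0.56, Jun -0.32, Ier2 -0.29 and Dusp1 -0.24, while Gadd45g read 0.34 and Junb 0.12. The median of the members was -0.24 and that of all genes 0.00.

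The third comparison sets the FR30 against the control sample on the standard diet. It shares the control standard sample with the diet comparison in control offspring, so a value out of line in that sample enters both and the lower members are not separate results. Of 9 members, 7 were at least 1.5-fold lower in the FR30 sample and 0 higher, against 2.21% of 9545 genes lower and 2.12% higher. Gadd45g was 4.22-fold lower, the 7th lowest of all genes. Junb was 1.83-fold lower, Gadd45a 1.77-fold, Jun 1.75-fold, Btg2 1.56-fold, Egr1 1.52-fold and Dusp1 1.52-fold. Ier2 read -0.47 on the log2 scale, and Atf3 0.36 with signals that overlapped within the STDEVs. With no background correction 4 of these 7 calls were left, and the log2 differences of Egr1, Jun and Btg2 were -0.34, -0.53 and -0.58.

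On the high-fat diet the prenatal comparison held 1 lower and 0 higher members of 9, against 1.56% of 9458 genes lower and 1.85% higher. The lower gene was Egr1, at 381.5 in the FR30 high-fat sample against 961 in the control high-fat sample. It was 3.38-fold lower in the FR30 high-fat than in the control high-fat sample, the 4th lowest value of all genes. That value and the diet difference of Egr1 in control offspring share the control high-fat sample. Gadd45g read 0.52 and Dusp1 0.44 on the log2 scale, higher in the FR30 sample by more than their STDEVs and by less than 1.5-fold. Gadd45a, Btg2, Jun, Junb, Ier2 and Atf3 lay between -0.26 and 0.01.

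The difference between both diet differences, FR30 minus control offspring, uses all 4 samples and was called at 2-fold. Gadd45g, at 2.60 on the log2 scale, and Dusp1, at 1.04, were higher, and Egr1, at -1.15, was lower. The shares of all 8460 genes called were 1.10% higher and 1.09% lower. Gadd45g was the 11th highest value of all genes. Jun, Gadd45a, Junb and Btg2 lay between 0.57 and 0.77, Ier2 at 0.21 and Atf3 at -0.35. With no background correction Egr1 read -0.99, just short of 2-fold.

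**Figure D3:**
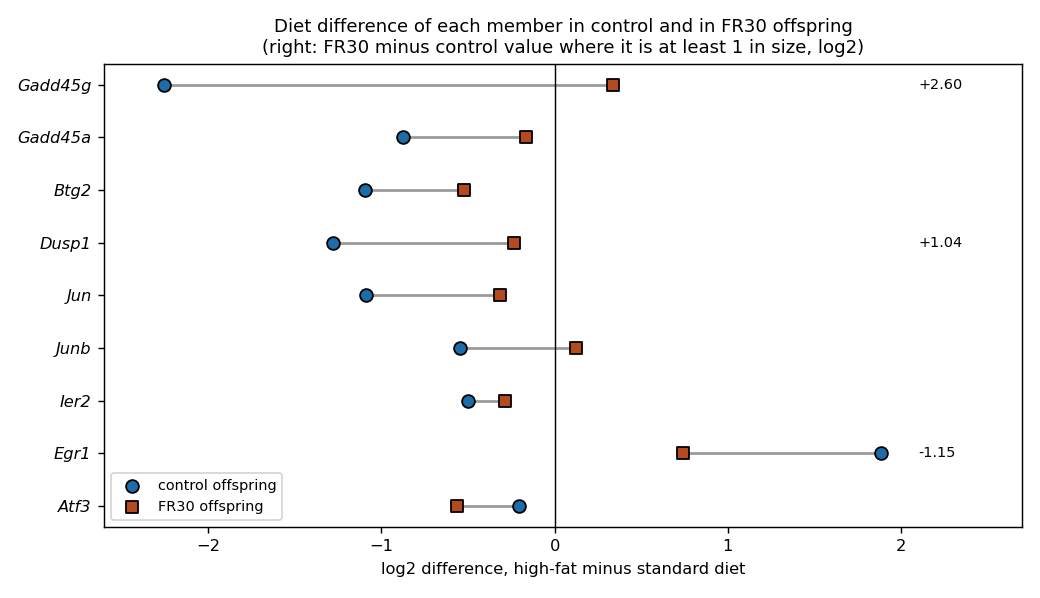
Log2 difference between high-fat and standard diet for each of the 9 detected members, as a blue circle for control and an orange square for FR30 offspring, joined by a line. The numbers at the right give the FR30 minus control value where it reaches 2-fold, and Gadd45g runs from -2.26 to 0.34 while Egr1 is above 0 in both.

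The non-normalized signals, assigned to genes through row order, gave similar differences in every comparison only after correction and normalization. In the comparisons that use the control standard sample, the detected members had the same direction before these steps too. Before these steps, the diet direction in FR30 rats was the reverse of the normalized one for Dusp1, Gadd45a, Btg2, Jun and Ier2. Dusp1 read 5848 on the standard and 7101 on the high-fat diet there, against 6937 and 5882 when normalized. The prenatal direction on the high-fat diet was also reversed for Jun, Junb, Btg2 and Gadd45a. Their normalized log2 differences were small, between -0.207 and -0.035. Without normalization and with the standard diet first, Gadd45g read 1469 and 453.6 in control rats and 401 and 664 in FR30 rats. Egr1 read 337 and 984 in control rats and 247 and 430.0 in FR30 rats. After the same correction and normalization, Gadd45g differed by -2.28 with diet in control offspring and by -2.17 between FR30 and control on the standard diet. After these steps, the number of members called was equal to that from the normalized table in every comparison.

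Related genes did not all follow the members. Of 14 other immediate early transcription factors in the table, 8 were detected on all samples, and 1 of these, Egr2, was highest in the control standard sample. Fosb, Egr3, Nr4a1 and Maff were detected on no sample. For the 8 detected on all samples, the median log2 difference between the control standard sample and the mean of the other 3 was -0.09, against 0.90 for the members and 0.00 for all genes. Jund, the AP-1 subunit made steadily in most cells, read 6959 and 7306 in control rats and 8239 and 8329 in FR30 rats. Of 10 factors compared, 1 was at least 1.5-fold higher and 0 lower with diet in control rats, 0 in either direction with diet in FR30 rats, and 0 higher and 1 lower in each prenatal comparison. The higher one was Klf6, a zinc finger factor, at 0.88 on the log2 scale. The lower one was Myc, a driver of cell growth, with log2 differences of -0.64 on the standard and -0.70 on the high-fat diet.

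Among 13 other early response genes detected on all samples, 5 were highest in the control standard sample. With diet, 2 were at least 1.5-fold higher and 2 lower in control rats, and 1 higher and 2 lower in FR30 rats. Between FR30 and control rats, 2 were higher and 1 lower on the standard diet, and 0 higher and 1 lower on the high-fat diet. Rgs2 is among the 2 higher on the standard diet and among the 2 lower with diet in FR30 rats, and without it each of these counts is 1. Trib1, a pseudokinase that scaffolds protein degradation, read 262.5 in that sample and between 191.5 and 219.2 in the others, and its diet difference in control offspring was -1.17. Sgk1 (Sgk in the file), a kinase induced by glucocorticoids, differed with diet by -0.93 in control and -0.73 in FR30 rats on the log2 scale. Per1, a clock gene that also responds to glucocorticoids and cAMP, was lowest in the control standard sample, with 254.6 ± 8.66 against 506 ± 27.7 in the control high-fat sample and 392.6 ± 12.5 and 313.9 ± 14.3 in the FR30 samples, standard diet first. Nfkbia, the inhibitor of NF-kB, differed with diet by 0.69 in control rats. Zfp36, which destabilises AU-rich messages, differed with diet by 0.64 in FR30 rats. Rgs2, an inhibitor of G protein signalling, read 1013 in the FR30 standard sample with a STDEV of 1168, so its differences from that sample are not readable.

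Of 13 other growth arrest and p53 target genes detected on all samples, 4 were highest in the control standard sample, and their median was 0.04 above the mean of the other 3 samples. With diet, 2 were at least 1.5-fold lower in control and 1 in FR30 rats, 1 was lower in each prenatal comparison, and 0 were higher in any of the 4. Tob1, an antiproliferative protein of the family of Btg2, read 1069 in the control standard sample and between 646.5 and 795.6 in the others. Its log2 difference with diet was -0.87 in control offspring. Phlda3, a p53 target that restrains AKT, differed with diet by -1.05 in control and -1.59 in FR30 rats, and between FR30 and control rats by -0.05 on the standard and -0.585 on the high-fat diet, where it was the gene called lower. Gadd45b, the third Gadd45 gene, read between 194.8 and 203.8 on all samples, and Cdkn1a, the cyclin-dependent kinase inhibitor p21, between 184.3 and 212.1. Cdkn1a was dim and highest in the control standard sample. Its log2 difference was -0.45 with diet in control rats and -0.50 between FR30 and control rats on the standard diet. In both comparisons the signals of Cdkn1a overlapped within the STDEVs. Plk2, a stress-induced kinase, differed by -0.66 between FR30 and control rats on the standard diet.

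Of 8 integrated stress response genes compared, 1 was at least 1.5-fold higher and 1 lower with diet in control rats, 0 with diet in FR30 rats, and 0 higher and 1 lower between FR30 and control rats on the standard diet. On the high-fat diet 0 of 7 were called. Of 7 detected on all samples, 1 was highest in the control standard sample, and Atf4, the main transcription factor of this response, differed by no more than 0.38 in any of the 4 comparisons of sample pairs. Chac1, a glutathione-degrading enzyme induced by Atf4, was detected only on the samples of the standard diet. It was lower in the FR30 than in the control one, with a log2 difference of -1.07, and its diet difference in control rats had a bound of -1.315. Nupr1, a stress-induced chromatin protein, differed with diet by 0.64 in control rats.

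Among the other MAP kinase phosphatases, 5 of 10 could be compared. With diet, 0 were at least 1.5-fold higher or lower in control rats and 2 were higher in FR30 rats, and 2 were lower in FR30 than in control rats on the standard and 1 on the high-fat diet. In the 3 detected on all samples, Dusp3, Dusp5 and Dusp6, the median difference between the control standard sample and the mean of the other 3 was 0.51. That is the value of Dusp3, while Dusp5 was at -0.05 and Dusp6 at 0.67. Dusp3 was not highest in that sample, with 574.3 there, 580.7 in the control high-fat sample and 406.4 and 381.4 in the FR30 samples, standard diet first. Dusp6, a cytoplasmic member of this family, read 3354 ± 163 and 2288 ± 104 in control rats and 1661 ± 116 and 2668 ± 90.4 in FR30 rats, the standard diet first, and was highest in the control standard sample as Dusp1 was. Its log2 difference was -1.08 between FR30 and control rats on the standard diet and 0.72 with diet in FR30 rats. Dusp3 (RGD1560049 in the file) was lower in FR30 than in control rats, with log2 differences of -0.70 on the standard and -0.86 on the high-fat diet. Dusp10 was at least 0.60 higher with the high-fat diet in FR30 offspring. In the MAP kinase cascade and its nuclear targets, 3 of 20 genes detected on all samples were highest in the control standard sample, and the median difference from the other 3 samples was 0.02. Of the 20, 0 were at least 1.5-fold higher and 1 lower with diet in control rats, 1 higher and 2 lower with diet in FR30 rats, 1 higher and 1 lower between FR30 and control rats on the standard diet, and 0 on the high-fat diet. Map2k6, a kinase of p38, differed by -0.94 between FR30 and control rats on the standard diet and by 0.98 with diet in FR30 rats. Crem, a CREB relative that also yields repressor forms, differed with diet by -0.93 in control and -1.05 in FR30 rats. Egfr, the epidermal growth factor receptor, differed by 0.77 between FR30 and control rats on the standard diet and by -0.89 with diet in FR30 rats. Mapk3 and Srf (RGD1559787 in the file) differed by no more than 0.29 in any of the 4 comparisons of sample pairs.

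**Figure D4:**
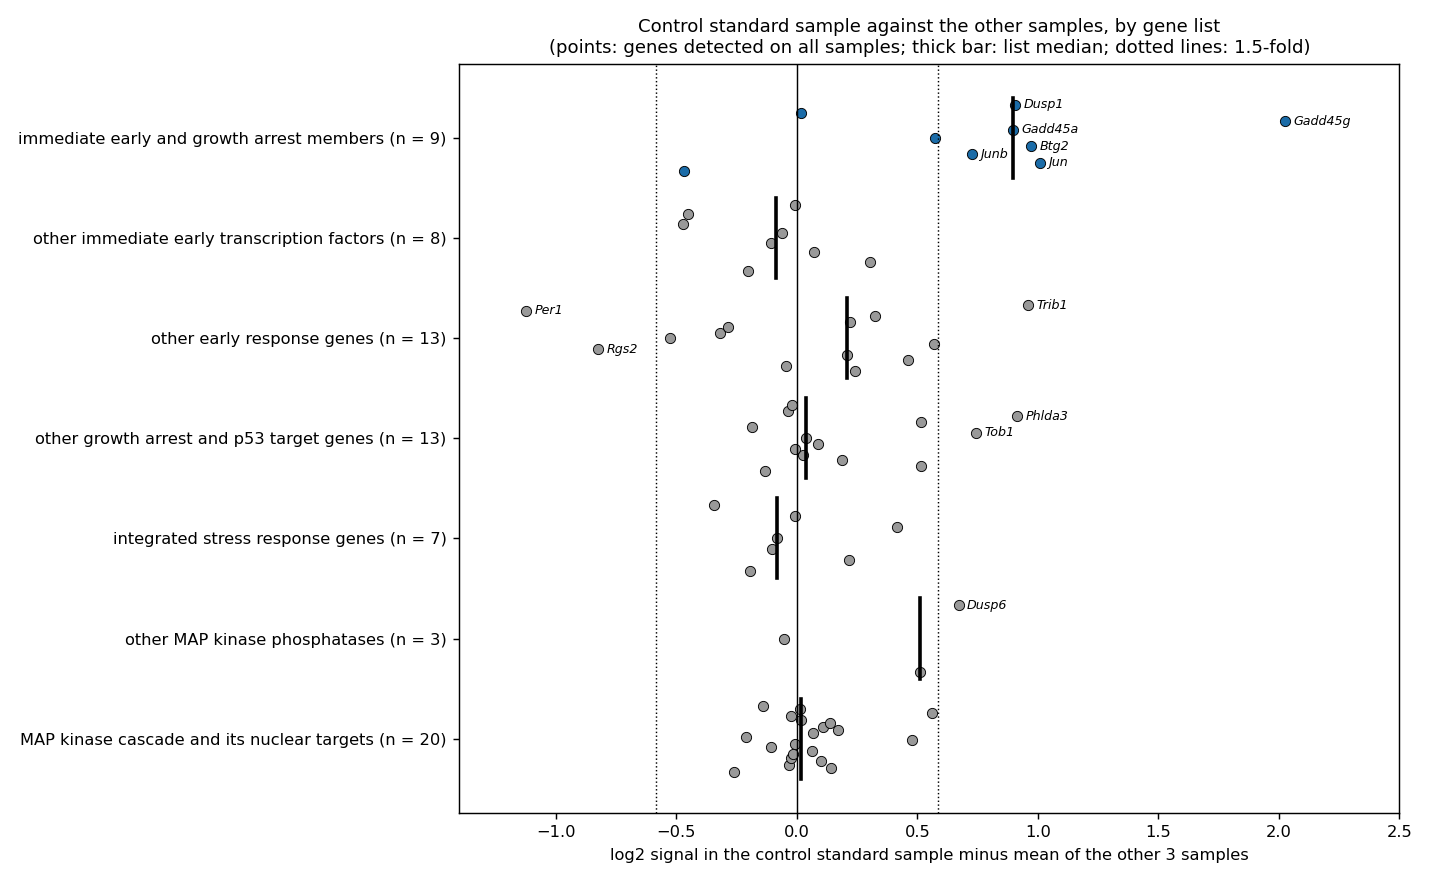
Log2 signal in the control standard sample minus the mean of the other 3 samples for genes detected on all samples, 1 row per list. Points are genes, thick bars list medians and dotted lines 1.5-fold, with genes beyond them named. The members and lists were chosen with earlier results of these data known. The members lie mostly to the right, at a median of 0.90, while the medians of the 6 other lists lie between -0.09 and 0.51, the highest being that of 3 MAP kinase phosphatases.

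Markers of other cell types did not share the high control standard values. Of 10 marker lists only the hepatocyte list had its highest summed signal in that sample. The 4 macrophage markers, all detected, summed to between 1009 and 1223. Lymphocyte markers, 2 of 5 detected on all samples, summed to between 281.3 and 348.9. Endothelial markers, 2 of 4 detected on all samples, summed to between 739.9 and 1004. Stellate and fibroblast markers, 4 of 5 detected on all samples, summed to between 3572 and 4326. Each of these sums was highest in the FR30 standard sample. The stellate and fibroblast sum is uncertain there, since STDEVs were wide, as in Dcn with 946 and a STDEV of 444.3 and Col1a2 with 2548 and a STDEV of 718. S100a8, S100a9 and Camp of neutrophils were detected on no sample. Cholangiocyte markers, 2 of 4 detected, summed to between 983.8 and 1169. Erythroid markers, 3 of 4 detected, summed to 17860 and 18760 in the high-fat samples against 10640 and 10850 in the standard samples, control rats first. With diet this is the direction of Egr1. Between the high-fat samples it is not, since Egr1 was lower in FR30 rats, at -1.76 on the log2 scale. Adipocyte markers summed to 7316 and muscle markers to 700.8 in the FR30 standard sample, against at most 1667 and 182 in the others. Those sums are not readable as levels, since the STDEVs there were near or above the signals, as in Fabp4 with 3020 and a STDEV of 4928 and Acta1 with 476 and a STDEV of 543. The part of these cells in the members' values was not tested.

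The genes whose pattern over the 4 samples was most like that of the 3 members with the widest range were ranked by Euclidean distance between log2 profiles centred on their mean, among genes detected on all samples. Nearest to Gadd45g were Ugt2b17, a glucuronosyltransferase, at a distance of 0.73, the dehydrogenase Dhrs7 at 0.82 and the retinol dehydrogenase Rdh16 (Rdh2 in the file) at 0.84. Ugt2b17 read 5367 and 1790 in control rats and 1583 and 3201 in FR30 rats, the standard diet first. In the FR30 high-fat sample these 3 genes were above their own log2 means, by 0.298, 0.095 and 0.332, while Gadd45g was below its own. Nearest to Dusp1 were LOC500506, a model similar to glyceraldehyde-3-phosphate dehydrogenase, at 0.13, Tex2 at 0.13 and Def8 at 0.16. LOC500506 read 2438.5 and 1183 in control rats and 1688 and 1556 in FR30 rats. Nearest to Egr1 were Gtse1 (RGD1563164 in the file) at 0.73, the transporter Abcb9 at 0.76 and Serpinb9b (RGD1562844 in the file) at 0.92. Abcb9 read 294 and 500.6 in control rats and 273.3 and 298.4 in FR30 rats. For Gadd45g and Egr1 even the nearest gene was 0.73 away. With 4 samples a likeness says little, and the distances describe these samples only.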

How the data were processed

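Per the file headers, the authors' normalized table holds an intensity, a STDEV and a detection p-value per probe and sample. Per the submitters' processing notes GenomeStudio was used. The sources used here give neither its version nor the way of normalizing. The authors also deposited a non-normalized intensity table. Its identifiers gave a correlation of log2 signals with the normalized table between 0.0587 and 0.0658, and row order one between 0.9981 and 0.9994 over 21005 rows, so it was used by row order, an alternative that was added once the data had been seen. Row order was found from the signals, which raises that correlation in part by construction. The identifiers of the tables cannot both be right. Those of the normalized table put 6 hepatocyte markers at or above 99.21% of its rows in every sample, and those of the non-normalized table put the same markers anywhere from 1.32% to 90.58%. Gene names were therefore taken from the normalized table. The members' own identifiers were not checked apart from this, and row order cannot show which table is right.

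Background was removed from the normalized signals with limma 3.58.1 (R 4.3.3) by its normal-exponential convolution, fitted from 21209 rows whose detection p-values were not averaged, with an offset of 16, then quantile-normalized and taken to log2. Later steps used Python 3.11.15, numpy 2.4.6, pandas 2.3.3, numba 0.67.0 and matplotlib 3.10.9. Symbols were updated through a RefSeq table, and the brightest row was kept per gene. Where only 1 of both samples detected a gene, its difference is a bound, taken against the higher of the dim sample's own value and its lowest detected value. Genes of bright rows with averaged detection p-values, Tob2 among them, counted as not detected. The call threshold was 1.5-fold for sample pairs and 2-fold where diet differences were subtracted. The functions were tested on simulated data. The 10 members and all lists were chosen with earlier results of these data known. Named genes were the members, up to 4 genes per list and comparison past 1.5-fold, and the 3 genes most like each of the 3 widest members. Some family genes under 1.5-fold in every sample pair, such as Jund, Egr2, Atf4, Gadd45b, Cdkn1a, Mapk3 and Srf, were named after their values were seen. Alternatives were no background correction, an offset of 50, median scaling, no detection filter, a higher fold and non-overlapping STDEVs.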

Additional observations from a re-analysis of the deposited data

Results flagged for a closer look

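Gadd45g was picked out because its diet difference pointed in opposite directions in control and FR30 offspring, -2.26 and 0.34 on the log2 scale, and its prenatal difference on the standard and the high-fat diet likewise, -2.08 and 0.52. Dusp1 was picked out because its prenatal difference was -0.60 on the standard and 0.44 on the high-fat diet. Each direction rests on 1 sample per group, the negative value of each pair uses the high control standard sample, and the difference between groups was not tested.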

How the results depend on the processing

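The 18 member differences called in the 5 comparisons kept their direction with no background correction, an offset of 50, median scaling and no detection filter. They also kept it with the non-normalized table after the same correction and normalization. So did the 27 not called, so direction says little of stability here, and leaving out the detection filter cannot move members detected on all samples. The counts of members called moved by over 1.5 times as follows. With no background correction, 0 in place of 1 member was called higher with diet in FR30 offspring, 4 in place of 7 lower in FR30 offspring on the standard diet, and 0 in place of 1 lower in the difference between the diet differences. At 2-fold these counts were 0 and 1 for the first and second, and at 3-fold the difference between the diet differences held 1 higher in place of 2 and 0 lower in place of 1. The cause is the construction: folds shrink when background stays in, and a higher fold asks more. An offset of 50 left 6 of the 7 lower members, with Egr1 at -0.51. Over all genes, calls in the 4 comparisons of sample pairs were between 60 and 163 higher and between 44 and 137 lower with no background correction, between 116 and 245 and between 90 and 232 with an offset of 50, against between 175 and 366 and between 148 and 324. In the difference between the diet differences they were 45 and 27, and 65 and 59, against 93 and 92. The non-normalized signals gave 134 in place of 202 genes higher in FR30 offspring on the standard diet. No paired analysis was possible because each group had 1 sample, and for the same reason no sample could be left out. Dim members, Atf3 and Fos above all, are limited by the background.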
